A study of Rattus norvegicus with 4 samples.

Results

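The 9 genes described here belong to the opioid and cannabinoid systems of the dorsal root ganglion (DRG). They encode the opioid receptors (Oprm1, Oprd1, Oprk1 and Oprl1), the precursors of opioid peptides (Penk and Pdyn), the cannabinoid receptors (Cnr1 and Cnr2) and an enzyme that breaks down endocannabinoids (Faah). They were taken from the deposited count table by gene name, as protein-coding genes. The 9 names gave 10 entries, because Faah is listed under 2 gene identifiers, out of 33506 genes in all and 22293 protein-coding genes. After edgeR's low-count filter, 9 of the 10 entries and 14719 protein-coding genes remained. The entry it removed was Pdyn.

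Lumbar DRGs of wild-type Wistar rats were sequenced as 4 libraries, 2 from rats given vehicle (PBS) and 2 from rats given cisplatin, a platinum-based chemotherapeutic, at 0.3 mg/kg. Both groups were injected as neonates, on P14 and P16 by the study's methods, and the study asked how early-life cisplatin changes gene expression in the ganglia. The labels state 16 days after treatment, whereas the methods give collection at P23, and this difference could not be resolved. Several DRGs were pooled for each library, and sex per library was not used here. Each library comes from 1 rat by its title, with total counts from 21384801 to 25618417.

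Opioid receptors are coupled to inhibitory G proteins. On sensory neurons they lower cyclic AMP, close voltage-gated calcium channels and open inwardly rectifying potassium channels, which reduces transmitter release from nociceptors. Cnr1 acts through the same class of G proteins on neurons, whereas Cnr2 is known mainly from immune cells, and both are activated by lipids such as anandamide that are made on demand and hydrolysed within cells. In whole ganglia the RNA of neurons, glia, immune cells and vessels is mixed, so fewer cells of a type and less RNA per cell cannot be told apart.

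Promoter windows were available from RefSeq (GRCr8) for 5 of the 9 genes, with 8 windows in all; Oprk1, Oprl1, Penk and Cnr1 had no entry. The windows of Oprm1, Oprd1 and Pdyn are shown because these low opioid genes shared their highest level in the same library, and that of Faah because the reference holds 1 Faah gene where the count table holds 2. Each window is the 250 bases before an annotated start, read 5′ to 3′ on the strand of the gene. Oprm1 has 2 windows on the plus strand, chr1:45585733-45585982 and chr1:45565121-45565370. The window of Oprd1 lies at chr5:149625000-149625249, that of Pdyn at chr3:137366504-137366753 and that of Faah at chr5:134735397-134735646, all on the minus strand. Capitals mark matches on either strand. The motifs searched were TATAAA, the box of core promoters, then GGGCGG, the GC-rich box, then CCAAT, followed by the E-box CACGTG, the cyclic AMP response element TGACGTCA and the AP-1 motif TGANTCA, and matches to different motifs did not share bases in the windows shown.
Oprm1, downstream start: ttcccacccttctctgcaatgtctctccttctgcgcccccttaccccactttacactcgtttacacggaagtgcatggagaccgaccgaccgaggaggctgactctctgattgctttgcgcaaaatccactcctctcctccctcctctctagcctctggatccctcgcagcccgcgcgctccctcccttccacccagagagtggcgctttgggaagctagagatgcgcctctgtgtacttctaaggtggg
Oprm1, upstream start: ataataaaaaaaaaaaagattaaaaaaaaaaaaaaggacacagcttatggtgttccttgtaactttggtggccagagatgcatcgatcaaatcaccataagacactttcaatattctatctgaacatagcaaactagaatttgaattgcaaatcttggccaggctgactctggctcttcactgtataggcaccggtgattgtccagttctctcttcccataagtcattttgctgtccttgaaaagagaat
Oprd1: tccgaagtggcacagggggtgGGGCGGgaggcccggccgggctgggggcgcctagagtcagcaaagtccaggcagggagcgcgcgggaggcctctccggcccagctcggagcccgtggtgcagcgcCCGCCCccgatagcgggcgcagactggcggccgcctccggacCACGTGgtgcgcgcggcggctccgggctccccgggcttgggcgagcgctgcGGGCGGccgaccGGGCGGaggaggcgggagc
Pdyn: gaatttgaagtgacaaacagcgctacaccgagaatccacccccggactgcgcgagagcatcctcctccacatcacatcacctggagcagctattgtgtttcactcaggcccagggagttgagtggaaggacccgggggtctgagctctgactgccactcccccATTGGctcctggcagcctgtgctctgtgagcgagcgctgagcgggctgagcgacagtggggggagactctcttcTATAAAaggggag
Faah: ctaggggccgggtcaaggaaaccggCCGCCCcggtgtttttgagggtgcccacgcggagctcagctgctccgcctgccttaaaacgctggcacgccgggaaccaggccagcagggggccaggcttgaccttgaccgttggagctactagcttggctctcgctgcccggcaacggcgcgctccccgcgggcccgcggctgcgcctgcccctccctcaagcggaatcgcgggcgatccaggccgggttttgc

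The 5 windows differed in what they held. The Oprd1 window had 4 GC boxes and 1 E-box at a GC content of 79.6%. The Pdyn window had 1 TATA box and 1 CCAAT box at a GC content of 59.2%, and the Faah window 1 GC box at 70.4%. Neither Oprm1 window held any of the 6 motifs, at GC contents of 58.4% and 36.4%. Among all 33469 windows of the reference table, 12.9% held a TATAAA match, 30.5% a GGGCGG match, 34.02% CCAAT, 5.59% CACGTG, 1.59% TGACGTCA and 6.34% TGANTCA. A match describes the letters of a window only.

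The transcript levels of the 9 genes were ordered by FPKM, which divides counts by gene length and depth and so allows genes to be compared. Penk and Oprl1 stood first, at 6.32 ± 2.13 and 6.30 ± 1.79 FPKM (mean ± SD over all 4 libraries), near the 64.1 and 64.0 percentiles of protein-coding genes. Cnr1 followed at 2.64 ± 1.05 FPKM and Oprk1 at 1.32 ± 0.933 FPKM. Oprd1 reached 0.634 ± 0.224 FPKM, and the 2 Faah entries 0.960 ± 0.924 and 0.620 ± 0.770 FPKM. Cnr2, Oprm1 and Pdyn were lowest, at 0.228 ± 0.0862, 0.199 ± 0.154 and 0.175 ± 0.206 FPKM. Of neighbours in this order, Oprl1 and Cnr1 were separate, with each Oprl1 value above each Cnr1 value. Cnr1 was above Oprk1 within each of the 4 libraries, but their ranges overlapped. Penk was above Oprl1 in 3 of 4 libraries, and the lower neighbours changed places between libraries.

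**Figure D1:**
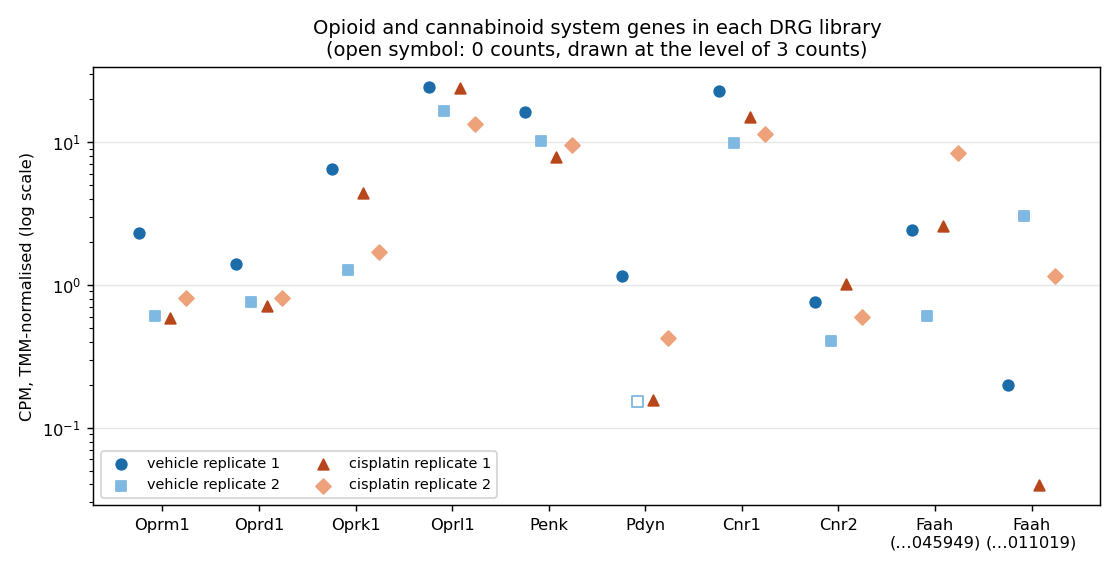
Level of each gene in each library, as TMM-normalised CPM (counts scaled to library depth, log axis); circles and squares are vehicle replicates 1 and 2, triangles and diamonds cisplatin replicates 1 and 2, and the open square is a count of 0 drawn at the level of 3 counts. Oprm1, Oprd1, Oprk1, Oprl1, Penk, Pdyn and Cnr1 were highest in vehicle replicate 1, and the Faah entries ran from 0.0394 to 8.37 CPM.

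Each gene was compared between cisplatin- and vehicle-treated DRGs with edgeR's quasi-likelihood test, with Benjamini-Hochberg adjustment over all 14719 genes. Calls required both an adjusted p below 0.05 and at least a 1.5-fold difference. None of the 9 entries tested was called, against 0.00679% of all genes tested (1 gene). By edgeR the adjusted p-values of the entries ran from 0.544 to 0.911. At an unadjusted p under 0.05, 0 of the 9 passed in the lower direction and 0 in the higher direction, against 5.73% and 3.7% of all genes. DESeq2 also called 0 of the 9, against 0.951% of all genes, with 1 entry (the longer Faah) at an unadjusted p under 0.05, against 9.26%. It gave no adjusted p for Oprd1 and Cnr2, so neither could be called by DESeq2. Of the 9 entries, 7 had a negative log2 fold change and 2 a positive one, with a median of -0.36, beside -0.01 and 50.9% negative over all genes tested. With 2 libraries a group, an exact two-sided permutation test of 1 gene cannot go below p = 0.333.

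The µ-opioid receptor gene Oprm1 (ENSRNOG00000018191, Rnor_6.0 chromosome 1, 43454803 to 43704948, plus strand), whose product is the main target of morphine, had counts of 58 in vehicle replicate 1, 12 in vehicle replicate 2, 15 in cisplatin replicate 1 and 19 in cisplatin replicate 2. Values below follow this order, with vehicle first. Vehicle replicate 1 was far above the other 3 libraries, among which the vehicle library was within the range set by the cisplatin libraries in CPM. The CPM values were 2.32 and 0.610 in vehicle-treated DRGs and 0.590 and 0.808 in cisplatin-treated DRGs. The log2 fold change was -1.08 (SE 0.72, 95% interval -2.89 to 0.73, edgeR adjusted p = 0.642). Without vehicle replicate 1 it was 0.21, so the negative sign rests on that library. Other transcripts overlap Oprm1 on the opposite strand, and the strand setting of the counting is not given in the sources used here, so its counts are uncertain. One of these, Rn60_1_0436.2, had counts of 69 and 17 in vehicle-treated and 24 and 21 in cisplatin-treated DRGs, highest in the same library as Oprm1.

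Oprd1 (ENSRNOG00000010531, chromosome 5, 150288126 to 150323063, minus strand) encodes the δ-opioid receptor, which binds enkephalins. Its counts were 35 and 15 in vehicle-treated and 18 and 19 in cisplatin-treated DRGs, or 1.398 and 0.762 CPM against 0.708 and 0.808 CPM. Again vehicle replicate 1 was alone at the top and the other 3 libraries were close together. Its log2 fold change was -0.52 (SE 0.52, 95% interval -1.82 to 0.79, edgeR adjusted p = 0.758), and 0.0036 without vehicle replicate 1.

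Oprk1 (ENSRNOG00000007647, chromosome 5, 13744658 to 13760305, minus strand) encodes the κ-opioid receptor, the receptor of dynorphins. Its counts were 163 and 25 in vehicle-treated and 112 and 40 in cisplatin-treated DRGs, or 6.51 and 1.27 CPM against 4.41 and 1.70 CPM. The cisplatin values lay between the vehicle values, and the replicates of each group differed more than the group means. This gave a log2 fold change of -0.36 (SE 0.84, 95% interval -2.44 to 1.73, edgeR adjusted p = 0.905). It was 1.27 without vehicle replicate 1 and 0.17 without cisplatin replicate 2.

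Oprl1 (ENSRNOG00000016768, chromosome 3, 177225737 to 177231663, plus strand) encodes the nociceptin receptor, a relative of the classical opioid receptors that does not bind most opiates. It had the most reads of the 4, with counts of 615 and 326 in vehicle-treated and 609 and 315 in cisplatin-treated DRGs. The CPM values were 24.6 and 16.6 against 23.97 and 13.4. The groups overlapped almost fully, and the first replicate of each was the higher one. The log2 fold change was -0.14 (SE 0.36, 95% interval -1.03 to 0.75, edgeR adjusted p = 0.911). It was 0.18 without vehicle replicate 1 and 0.22 without cisplatin replicate 2.

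The mix of the opioid receptor transcripts within a library does not depend on scaling between libraries. Oprl1 made up 67.2% and 82.6% of the summed FPKM of the 4 receptor genes in vehicle-treated DRGs and 77.3% and 76.1% in cisplatin-treated DRGs. Oprk1 took 21.0% and 7.47% against 16.7% and 11.4%, and Oprd1 8.21% and 8.16% against 4.903% and 9.86%. Oprm1 was the smallest share in each library, at 3.64% and 1.75% against 1.09% and 2.64%. By FPKM, the order of Oprl1 first and Oprm1 last thus held in all 4 libraries, and the groups overlapped for each of the 4 shares. The place of Oprm1 rests on the division by gene length, 5301 bases against 1417 for Oprd1. By counts alone, Oprm1 held 6.66% in vehicle replicate 1 against 4.02% for Oprd1, and both held 4.835% in cisplatin replicate 2. Oprm1 was below Oprd1 in vehicle replicate 2 (3.175% against 3.97%) and cisplatin replicate 1 (1.99% against 2.39%). The summed FPKM itself was 11.8 and 6.39 in vehicle-treated and 9.97 and 5.66 in cisplatin-treated DRGs.

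**Figure D2:**
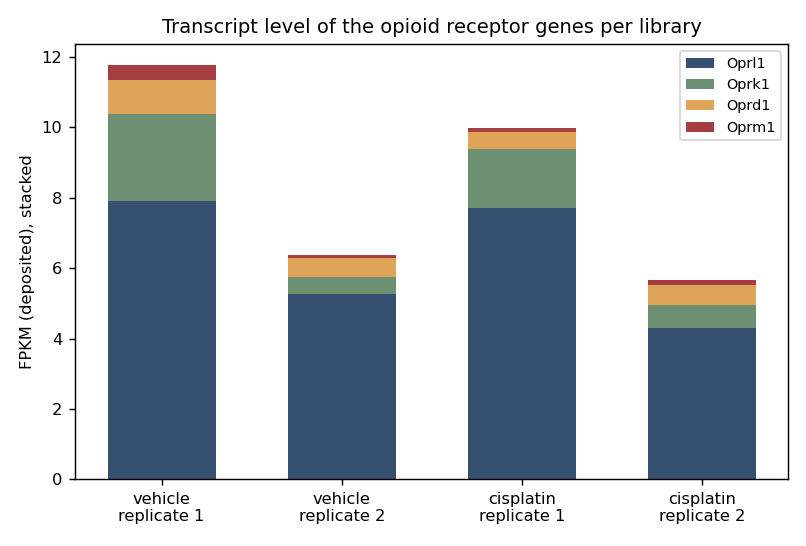
Stacked bars of the deposited FPKM of Oprl1, Oprk1, Oprd1 and Oprm1 in each library; the y axis is FPKM from 0. The sum ran from 5.66 in cisplatin replicate 2 to 11.8 in vehicle replicate 1, and Oprl1 filled 67.2% to 82.6% of each bar.

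Of the peptide precursors, Penk (ENSRNOG00000008943, chromosome 5, 17056419 to 17061837, minus strand), from which the enkephalins are cut, had counts of 409 and 202 in vehicle-treated and 201 and 225 in cisplatin-treated DRGs. In CPM it was 16.3 and 10.3 against 7.91 and 9.56, so that both cisplatin libraries were below both vehicle libraries, though the lower vehicle library was close to the higher cisplatin library. It was the 1 entry of the 9 with this order, which 21.2% of all genes tested had. The group means of 13.3 ± 4.30 and 8.74 ± 1.17 CPM (SD, n = 2 each) differed by slightly more than the SD of the vehicle group. The log2 fold change was -0.61 (SE 0.30, 95% interval -1.37 to 0.15, edgeR adjusted p = 0.567). It kept its sign without each library in turn, and was -0.22 without vehicle replicate 1.

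Pdyn (ENSRNOG00000026036, chromosome 3, 122194329 to 122206671, minus strand), the dynorphin precursor, had vehicle counts of 29 and 0 and cisplatin counts of 4 and 10. The 2 vehicle libraries, at 1.16 and 0 CPM, were thus its highest and its lowest, and cisplatin replicate 2 was at 0.425 CPM. The count of 0 allows up to 0.152 CPM (3 counts of that library), and cisplatin replicate 1 at 0.157 CPM was near this limit. Pdyn had too few counts for the filter. In the edgeR fit without a filter its log2 fold change was -1.02, with an adjusted p of 0.834, and no difference was detectable at this depth.

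Cnr1 (ENSRNOG00000008223, chromosome 5, 49311030 to 49333056, plus strand) encodes the cannabinoid receptor of neurons. Its counts were 572 and 194 in vehicle-treated and 383 and 267 in cisplatin-treated DRGs, or 22.9 and 9.86 CPM against 15.1 and 11.3 CPM. Both cisplatin values lay between the vehicle values. In edgeR the log2 fold change was -0.31 (SE 0.43, 95% interval -1.37 to 0.75, edgeR adjusted p = 0.830), and 0.43 without vehicle replicate 1.

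Cnr2 (ENSRNOG00000009260, chromosome 5, 154260062 to 154268126, plus strand), the cannabinoid receptor best known from immune cells, had vehicle counts of 19 and 8 and cisplatin counts of 26 and 14. In CPM it was 0.759 and 0.406 against 1.02 and 0.595, with overlapping groups and cisplatin replicate 1 highest. Cnr2 had a log2 fold change of 0.46 (SE 0.59, 95% interval -1.03 to 1.94, edgeR adjusted p = 0.819), and leaving out each library in turn gave 0.02 (without cisplatin replicate 1) to 0.997 (without vehicle replicate 1). Scaled to neuronal markers it was 0.03. Beside it, the summed level of 8 macrophage markers was 55.8 and 66.2 CPM in vehicle-treated and 57.5 and 63.5 CPM in cisplatin-treated DRGs. That of 7 B and T cell markers was 6.79 and 6.66 CPM against 7.64 and 8.93 CPM, higher in both cisplatin libraries, with Cd3e and Cd3d at 0 in at least 1 library each. The part of these cells in the Cnr2 values was not tested.

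Faah, fatty acid amide hydrolase, degrades anandamide. The deposited table lists it at 2 places on the minus strand of chromosome 5, and the 2 entries had log2 fold changes of opposite sign. ENSRNOG00000045949 (134852875 to 134871775) had counts of 61 and 12 in vehicle-treated and 66 and 197 in cisplatin-treated DRGs, or 2.44 and 0.610 CPM against 2.60 and 8.37 CPM. Both cisplatin libraries were above both vehicle libraries, an order held by 20.6% of all genes tested and by 1 of the 9 entries, but cisplatin replicate 1 exceeded vehicle replicate 1 only slightly. For this entry the log2 fold change was 1.82 (SE 0.83, 95% interval -0.24 to 3.88, edgeR adjusted p = 0.544). It was 3.17 without vehicle replicate 1 and 0.75 without cisplatin replicate 2.

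ENSRNOG00000011019 (134331929 to 134348995), the shorter Faah entry, had counts of 5 and 60 in vehicle-treated and 1 and 27 in cisplatin-treated DRGs. It was high in both second replicates and near 0 in both first replicates. The CPM values were 0.1997 and 3.05 against 0.0394 and 1.15, and the log2 fold change was -1.44 (SE 1.52, 95% interval -5.23 to 2.35, edgeR adjusted p = 0.772). Without vehicle replicate 2 it was 1.53, and without vehicle replicate 1 -2.35.

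How the Faah reads divided between the 2 entries differed from library to library. The longer entry held 92.4% and 16.7% of them in vehicle-treated and 98.5% and 87.9% in cisplatin-treated DRGs. RefSeq lists 1 Faah gene in GRCr8, but whether the 2 entries are copies of 1 gene was not tested, and each entry alone is uncertain. Summed, a choice made after the values were seen, Faah had vehicle counts of 66 and 72 and cisplatin counts of 67 and 224. The 3 libraries other than cisplatin replicate 2 were then between 2.64 and 3.66 CPM, and cisplatin replicate 2 was at 9.52 CPM. The summed log2 fold change was 0.95 (SE 0.64, 95% interval -0.64 to 2.54, edgeR adjusted p = 0.642), and the groups overlapped.

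**Figure D3:**
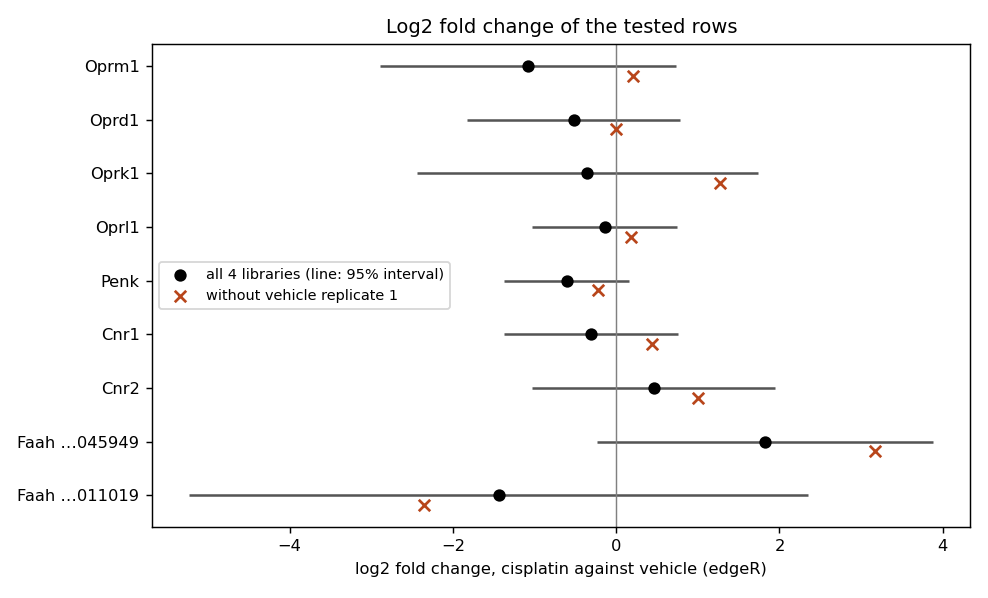
Log2 fold change, cisplatin against vehicle, of the 9 entries tested with edgeR; dots are fits of all 4 libraries with 95% intervals as lines, and crosses are fits without vehicle replicate 1. Each interval included 0, and the sign changed without vehicle replicate 1 for Oprm1, Oprd1, Oprk1, Oprl1 and Cnr1.

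Vehicle replicate 1 was the highest library for 6 of the 9 entries tested (Oprm1, Oprd1, Oprk1, Oprl1, Penk and Cnr1), against 21.9% of all genes tested, and also for Pdyn. Markers of tissue next to the ganglion were highest in the same library. The summed level of 5 spinal cord markers was 106 CPM there, 30.6 CPM in vehicle replicate 2, and 19.6 and 35.4 CPM in cisplatin replicates 1 and 2, and each of the 5 was highest in vehicle replicate 1. Olig2, a transcription factor of oligodendrocytes, had 56 counts in vehicle replicate 1 and 0 in the other 3 libraries. Slc32a1, the GABA and glycine transporter of inhibitory neurons, had 77 and 1 in vehicle-treated and 0 and 7 in cisplatin-treated DRGs. Skeletal muscle markers summed to 354 CPM in vehicle replicate 1, 12.9 CPM in vehicle replicate 2, and 42.7 and 13.8 CPM in the cisplatin libraries, with all 3 listed markers highest in vehicle replicate 1. The part of this tissue in the opioid and cannabinoid values was not tested. Without vehicle replicate 1, 2 of the 9 entries had a negative log2 fold change and their median was 0.21.

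All 10 neuronal markers were present in each library. Their summed level was 10403 and 8388 CPM in vehicle-treated and 15771 and 10907 CPM in cisplatin-treated DRGs. All 10 had a positive log2 fold change, with a median of 0.45, whereas 50.9% of all genes tested had a negative one. Of the 10, 5 had both cisplatin libraries above both vehicle libraries, against 20.6% of all genes tested. By edgeR 0 of the 10 were called and 0 had an unadjusted p under 0.05, against 3.7% of all genes in the higher direction. Set per 10000 CPM of neuronal markers, Penk was 15.7 and 12.2 in vehicle-treated and 5.02 and 8.77 in cisplatin-treated DRGs. Oprl1 was 23.6 and 19.7 against 15.2 and 12.3, and Cnr1 21.97 and 11.7 against 9.56 and 10.4. Oprd1 was 1.34 and 0.909 against 0.449 and 0.740, whereas Oprm1 and Oprk1 still overlapped. On this scale 4 of the 9 entries had both cisplatin libraries below both vehicle libraries, a share near the 47.2% of all genes tested that did. Scaling to these markers shifted the median over all genes to -0.42 on the log2 scale.

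**Figure D4:**
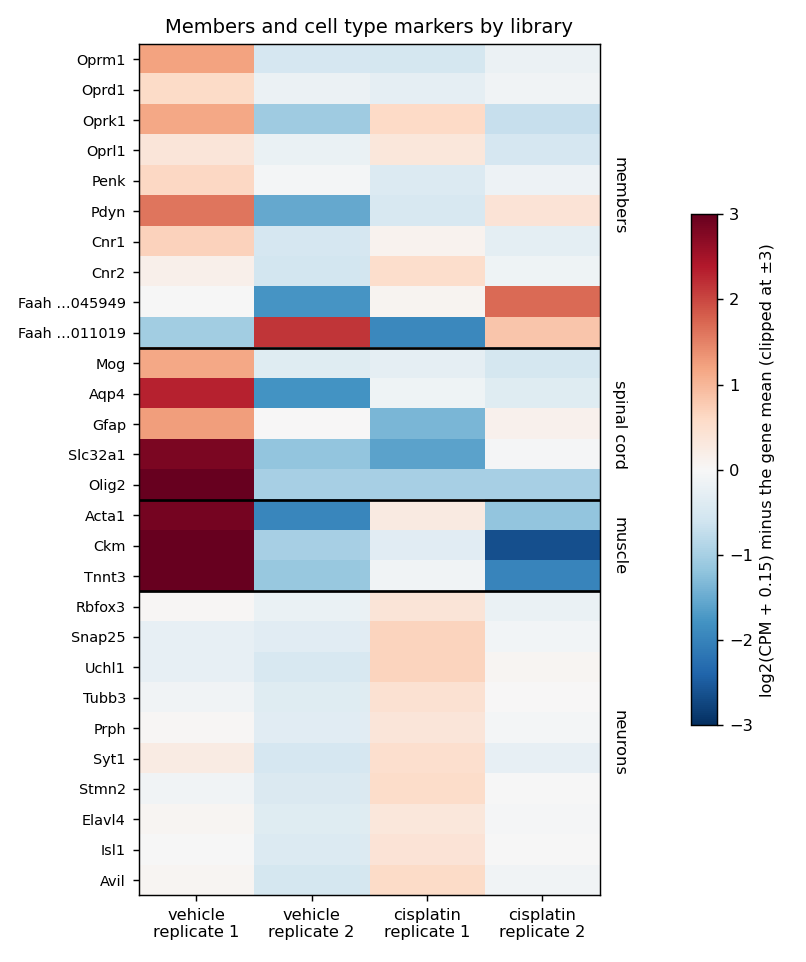
Heat map of log2(CPM + 0.15) minus the mean of each gene, clipped at 3 in either direction, for the 10 entries and for spinal cord, skeletal muscle and neuronal markers (rows) in the 4 libraries (columns). Vehicle replicate 1 holds the highest value of all 5 spinal cord and all 3 muscle markers and of 7 of the 10 entries, whereas neuronal markers are highest in cisplatin replicate 1.

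As a description, tested entries were set beside the 143 other genes of the lists used here by the root-mean-square difference of centred log2 CPM over the 4 libraries. Oprd1 and Penk were nearest to each other (0.0994). Oprl1 was nearest to Adrbk2, a receptor kinase (0.0851), Cnr1 to Adcyap1, a nociceptor neuropeptide (0.118), and Cnr2 to Scg5, a prohormone convertase chaperone (0.0547). Oprm1 was nearest to Mog, a myelin protein of the central nervous system (0.253). The nearest genes to the Faah entries were distant, with Pnoc at 0.775 and Mme at 0.925. Some gene of the lists is always nearest, so these matches over 4 libraries do not show cell type. Cnr2, with the smallest difference, had only 8 to 26 counts a library.

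The wider pathway was described from 71 further genes, of which 68 were tested. By edgeR 0 were called, 32 had a positive and 36 a negative log2 fold change, and the median was -0.03. At an unadjusted p under 0.05, 6 of the 68 were lower and 1 was higher, beside 5.73% and 3.7% of all genes tested. Higher and lower stand here for the sign of the log2 fold change alone. In each group of the pathway the gene with the smallest p is given below, and its sign was the same under each alternative tried. Scaled to neuronal markers, however, the positive values shrank, to 0.02 for Abhd12, 0.07 for Scg5, 0.08 for Fabp5 and 0.24 for Cnrip1 on the log2 scale.

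Among the other opioid family precursors, Pomc, the precursor of β-endorphin, had vehicle counts of 94 and 61 and cisplatin counts of 51 and 53 (log2 fold change -0.69, SE 0.35, edgeR adjusted p = 0.571). The nociceptin precursor Pnoc had 40 and 9 against 54 and 42. Of 6 genes that process peptide precursors, 3 were higher and 3 lower. Scg5 had 3532 and 1749 counts against 5081 and 2956 (log2 fold change 0.50, SE 0.34). Of 7 genes for the breakdown or scavenging of opioid peptides, 6 were lower and 1 higher. Among these Ace, a peptidase that also cuts enkephalins, had 173 and 193 counts against 50 and 147 (log2 fold change -1.02, SE 0.57, edgeR adjusted p = 0.594). Its log2 fold change was -0.41 without cisplatin replicate 1 and -2.08 without cisplatin replicate 2.

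Downstream of the receptors, 10 of 13 effector genes had a negative log2 fold change, against 50.9% of all genes tested, and 5 had both cisplatin libraries below both vehicle libraries, against 21.2%. Adcy1, a calcium-stimulated adenylyl cyclase, had the largest difference, with vehicle counts of 524 and 326 and cisplatin counts of 104 and 171, or 20.9 and 16.6 CPM against 4.09 and 7.27 CPM. Its log2 fold change was -1.72 (SE 0.34, 95% interval -2.58 to -0.87). edgeR gave an unadjusted p of 0.00301 and an adjusted p of 0.522, whereas DESeq2 called it, with an adjusted p of 0.00719. Without vehicle replicate 1 its log2 fold change was -1.53. The 2 other effectors with an unadjusted p under 0.05 by edgeR, Adcy9 and Adcy6, are also adenylyl cyclases, and they are named after their values were seen. Adcy9 had 367 and 254 counts against 141 and 158, and Adcy6 had 2248 and 2429 against 1046 and 1640. Of the 7 adenylyl cyclase genes in the list, these 3 and Adcy5 (log2 fold change -0.35) had both cisplatin libraries below both vehicle libraries, an order that 21.2% of all genes had. The groups overlapped for Adcy2 (0.14), Adcy3 (-0.16) and Adcy8 (-0.04).

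Of 5 inhibitory G protein α subunits, 3 were higher and 2 lower. Gnai1 had vehicle counts of 2365 and 1833 and cisplatin counts of 1278 and 1523 (log2 fold change -0.71, SE 0.20, edgeR adjusted p = 0.522). Of 7 receptor kinases and arrestins, 4 were lower, among them Arrb1, β-arrestin 1, which takes part in receptor desensitisation. Arrb1 had 574 and 301 counts against 299 and 218 (log2 fold change -0.86, SE 0.28, edgeR adjusted p = 0.522), and -0.53 without vehicle replicate 1. Of 11 RGS proteins and receptor partners, 7 were higher and 4 lower. Cnrip1, which binds the tail of the Cnr1 protein, had 1011 and 704 counts against 1610 and 1334 (log2 fold change 0.66, SE 0.18, edgeR adjusted p = 0.522). For Cnrip1 both cisplatin libraries were above both vehicle libraries, an order that 20.6% of all genes tested had.

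On the endocannabinoid side, 3 of 5 synthesis genes were lower. Napepld, which releases anandamide from its phospholipid precursor, had vehicle counts of 134 and 98 and cisplatin counts of 49 and 57. In CPM it was 5.35 and 4.98 against 1.93 and 2.42, with close replicates and no overlap (log2 fold change -1.25, SE 0.34, edgeR adjusted p = 0.522). Both cisplatin libraries were thus below both vehicle libraries, an order that 21.2% of all genes tested had. Of 5 other breakdown genes 4 were higher, among them Abhd12, a monoacylglycerol hydrolase, with 4040 and 3920 counts against 6535 and 5574 (log2 fold change 0.45, SE 0.22). Naaa (0.03) and Ptgs2 (0.02) were higher by sign only. The lower gene, Mgll, had the largest log2 fold change of the group (-0.85, SE 0.43, edgeR adjusted p = 0.570). Its CPM values were 177 and 297 against 84.9 and 178, with overlapping groups. Summed, the 5 genes were at 373 and 535 CPM against 386 and 455 CPM, which also overlapped. All 3 lipid carriers had a positive log2 fold change, with Fabp5 at 4843 and 4372 counts against 6934 and 7270 (log2 fold change 0.49, SE 0.21, edgeR adjusted p = 0.540). Of 7 other receptors for cannabinoid lipids, Gpr55, Gpr18 and Gpr119 had 0 to 5 counts a library and were not tested. Ppara, a nuclear receptor for lipid amides, had 58 and 44 counts against 25 and 32 (log2 fold change -0.96, SE 0.41, edgeR adjusted p = 0.535).

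**Figure D5:**
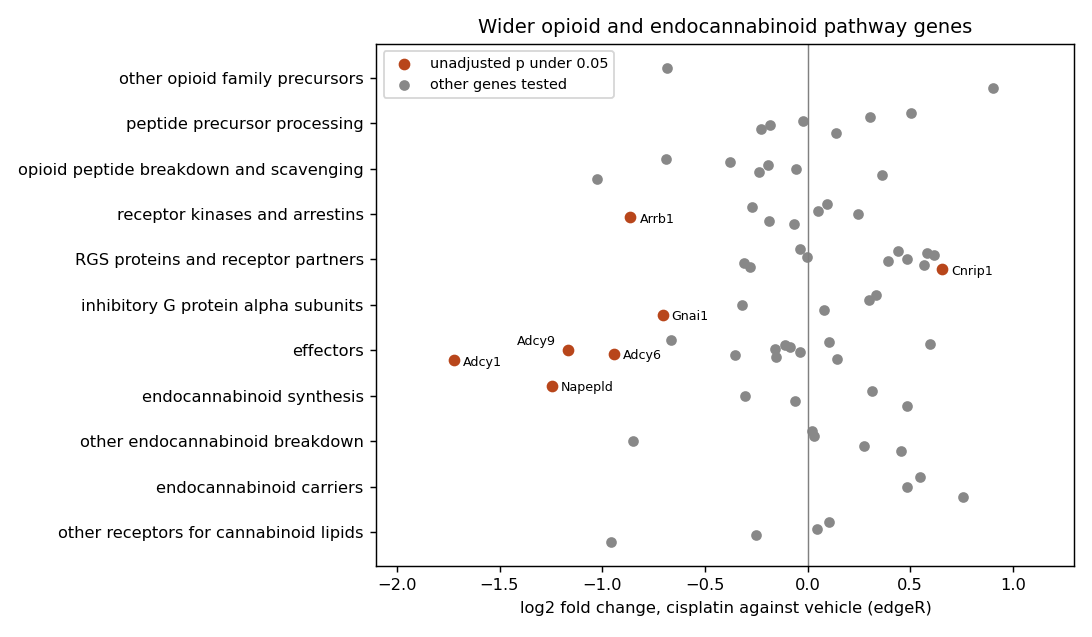
Log2 fold change, cisplatin against vehicle (edgeR), of the 68 tested genes of the wider pathway, by group (rows, with points spread vertically for clarity). The 7 labelled genes had an unadjusted p under 0.05, from Adcy1 at -1.72 to Cnrip1 at 0.66, and none of the 68 was called.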

How the data were processed

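Treatment and replicate number were read from the labels, whose titles name rats 1 and 2 in each group. p-values measure the spread between these libraries. The authors selected polyadenylated RNA, mapped reads to Ensembl Rnor_6.0 and deposited raw counts per gene, with gene length and FPKM values. Per library, the deposited FPKM equalled the count over gene length times 1 constant. The submitters' processing notes name HISAT2 2.0.5, StringTie 1.3.3b and featureCounts 1.5.0-p3. Both directional and non-directional library protocols are described in the labels, and the strand setting of the counting is not given in the sources used here. Coordinates are those of the deposited table. A rat genome was not used here.

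edgeR 4.0.16 (R 4.3.3) was used with filterByExpr, which kept 14719 of 22293 protein-coding genes, TMM factors (1.10 and 0.941 for vehicle, 1.03 and 0.938 for cisplatin) and the quasi-likelihood test, with Benjamini-Hochberg adjustment over all genes tested. Standard errors were derived from the F statistic. No library pair agreed within sampling noise. A floor of 3 counts is 0.118 to 0.152 CPM and covers counting error only, and reads had no molecular identifiers. The test was tested on simulated data. Alternatives were the replicate block, a gene length correction (lowess span 0.3), DESeq2 1.42.0, its size factors, library size alone, scaling to neuronal markers, no filter, a stricter filter of 10 counts or more per library, all biotypes, limma 3.58.1 on log2(FPKM + 1) and log2(FPKM + 0.1), and leaving out each library, where the lone library of a group is assumed to vary like the other group. Levels were also set as CPM per kilobase.

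The 9 genes and the pathway and marker lists were chosen with earlier results of these data known. Of the pathway lists, called genes and the gene with the smallest p in each list are named, plus the 1 list gene nearest to an entry tested. The nearest gene of Oprk1 is not reported here. Adcy6, Adcy9 and the other cyclases, Pnoc, Mgll, Naaa, Ptgs2, the transcripts near the genes and the sum of the Faah entries were chosen after the values were seen.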

Additional observations from a re-analysis of the deposited data

How the results depend on the processing

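No entry of the 9 genes was called by edgeR, DESeq2 or limma under any alternative tried, and of the values recomputed 180 kept their direction and side of the threshold, 13 moved and 9 reversed. Over all genes the count of calls was 1, and it was 4 without a filter, 2 with at least 10 counts in every library, 4 and 2 on log2(FPKM + 1) and log2(FPKM + 0.1), 0 when scaled to neuronal markers and 140 (50 higher, 90 lower) with DESeq2. Same-numbered libraries come from different rats, and the deposited column headers, Veh1, Veh2, Cis4 and Cis6, do not pair them. The numbers were therefore not taken to pair the samples, and the replicate block rests on the title numbers alone. The deviations of same-numbered libraries correlated at r = 0.444 across genes, for the single pair of differences that 2 replicates allow. With the replicate block 1532 genes were called (494 higher, 1038 lower), with the block and gene length correction 963 (254 higher, 709 lower), and with the block and the Faah entries summed 1533. In the block Penk had a log2 fold change of -0.58, and Penk and both Faah entries (3 of 9) had an unadjusted p under 0.05, beside 31.5% of all genes in that fit. Of the 68 wider pathway genes the block called 12 (17.6%, beside 10.4% of all genes), among them Adcy1, Gnai1, Cnrip1, Arrb1, Ace and Napepld. The block with length correction called 10 (14.7%, beside 6.54% of all genes), and DESeq2 called 1 (1.47%, beside 0.951%). The other alternatives without the block that kept all 4 libraries called 0, beside at most 0.0272% of all genes. Cnr1 turned to 0.011 with the block and length correction. Leaving out each library in turn gave 0 to 7 calls over all genes and log2 fold changes of -1.72 to 0.21 for Oprm1, -0.88 to 0.0036 for Oprd1, -1.20 to 1.27 for Oprk1, -0.62 to 0.22 for Oprl1, -0.79 to 0.43 for Cnr1, 0.02 to 0.997 for Cnr2, -0.90 to -0.22 for Penk, -5.16 to 1.53 for the shorter Faah entry and 0.75 to 3.17 for the longer one. The cause of these changes was not tested. Depth limits Pdyn, Cnr2, Oprd1 and Oprm1, which had under 60 counts in each library, and the shorter Faah entry, which had 1 to 60.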

Other observations

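Beside the opposite-strand transcript named above, 3 further genes overlap Oprm1, of which the processed pseudogene Rn60_1_0437.1 had 0 counts. The antisense transcript Rn60_1_0436.1 had vehicle counts of 11 and 8 and cisplatin counts of 43 and 16, and it was highest in cisplatin replicate 1. Oprm1 was at 0.590 CPM in that library. It was nearly the same, at 0.610 CPM, in vehicle replicate 2, where the antisense transcript had its lowest count. Ipcef1 had 6 and 2 counts against 8 and 3. Next to the 2 Faah entries the count table also lists Nsun4, an RNA methyltransferase gene, at 2 places, with 5 and 5 counts against 7 and 9 at ENSRNOG00000012020 and 3 and 0 against 6 and 3 at ENSRNOG00000046192, whereas RefSeq lists 1 Nsun4 gene in GRCr8. The 7 Schwann cell markers summed to 61698 and 156655 CPM in vehicle-treated and 48178 and 137386 CPM in cisplatin-treated DRGs, lower in both first replicates. In both groups Oprk1, Oprl1, Cnr1 and Cnr2 were higher in the first replicate than in the second. The share of all genes with that order was not counted, and replicate differences correlated at r = 0.444 across genes. The part of Schwann cells in these values was not tested.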
